A study of Sus scrofa with 27 samples.

Results

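The E2F transcription factors and their dimerisation partners, the DP proteins, were followed in the mural granulosa cells (GCs) of primiparous sows. The members were the 10 genes E2F1 to E2F8, TFDP1 and TFDP2, found by matching the pig Ensembl identifiers of the count files to gene symbols. Each symbol had 1 identifier among the 35670 counted, and all 10 were among the 11384 named genes that could be tested. GCs line the inside of the follicle wall, and they were cut by laser capture microdissection from the largest healthy follicle of each sow, so that 1 follicle and 1 RNA-seq library stand for each animal. Full-fed (FF, n = 13) sows received 6.5 kg of feed per day and feed-restricted (RES, n = 14) sows 3.25 kg per day over the last 2 weeks of lactation, and the ovaries of both groups were collected on day 2 post-weaning. All were Large White × Norwegian Landrace crossbred (TN70) sows in their first parity on the same feed until the restriction and after weaning. Per the study's methods, RES animals had been picked from a larger group for high body weight loss and FF animals for low loss. Diet and the response to it therefore cannot be told apart. The study also reports that the largest healthy follicle was smaller in RES than in FF sows. Diet and follicle size cannot be told apart here either.

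E2F proteins sit at the point where a cell commits to copying its DNA. In resting cells, RB1 and its relatives, the pocket proteins, bind E2F-DP dimers and hold the target genes silent, and phosphorylation by cyclin-dependent kinases releases the dimers at the G1/S boundary. E2F1, E2F2 and E2F3 are usually called activators, E2F4, E2F5 and E2F6 repressors, and the atypical members E2F7 and E2F8 bind DNA without a DP protein and repress the same targets later in S phase. Several E2F genes are themselves E2F targets. GCs of growing follicles divide, and the comparison here asks how the transcripts of this family differed after feed restriction and how they moved with PCNA, the DNA polymerase clamp used as a proliferation marker.

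Short E2F sites near the members' own gene starts are shown first, because the family is known to be wired to itself. Positions and sequences are from the RefSeq annotation and genome of Sscrofa11.1, the build to which the study aligned its reads. The 1000 bases on either side of each RefSeq gene start were searched on both strands for the letters TTTCCCGC, TTTCGCGC, TTTGCCGC and TTTGGCGC, none of which overlaps another motif searched. Of 19522 protein-coding genes with a full window, 13.5% held at least 1 match and 1.35% held at least 2. Among the members, E2F1 and E2F8 held 2 matches each, E2F2, E2F3, E2F6, E2F7 and TFDP1 held 1 each, and no match was found for E2F4, E2F5 or TFDP2. PCNA held 3. Each site of the 4 members that were higher in RES GCs, of E2F3 and of TFDP1 is given below in the direction of its gene, with the match in capitals and 11 bases on either side.

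E2F1, intron, chr17:37189832-37189861, minus strand: gtggctctttcGCGGCAAAaaggatttggc

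E2F1, intron, chr17:37189819-37189848, minus strand: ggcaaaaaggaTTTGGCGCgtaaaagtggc

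E2F2, exon, chr6:81398811-81398840, minus strand: gcggcacgcagTTTCGCGCtaaaaaaaaaa

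E2F3, exon, chr7:15793963-15793992, plus strand: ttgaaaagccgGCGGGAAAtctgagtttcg

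E2F7, intron, chr5:104127534-104127563, plus strand: cccagttctttGCGCCAAAattaactgacc

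E2F8, intron, chr2:40178566-40178595, plus strand: agcggcggccgTTTCCCGCctctcgctccg

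E2F8, exon, chr2:40178738-40178767, plus strand: tcaggctttccGCGCCAAAtttttaaatcg

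TFDP1, before the gene start, chr11:78755431-78755460, plus strand: gggagccgaagGCGCGAAAaggcgcgcagg

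The TFDP1 match began 30 bases before the gene start, and that of E2F2 at base 34 of the gene. The other sites shown lay further in, from base 269 in E2F1 to base 622 in E2F7, and that of E2F6 began at base 957. A match is a run of letters and no evidence of binding, and a member without one may hold other E2F sequences in this window.

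Library totals ran from 12299220 to 16021200 counts among the FF sows, around a median of 13490513, and from 12942198 to 18120922 among the RES sows, around 15232600. Normalized counts below are counts divided by DESeq2 size factors. FF sow 10, the library with the lowest total, had the highest FF level of E2F1, E2F2, E2F3 and E2F4. RES sow 7 had the lowest RES level of PCNA, E2F1, E2F2, E2F7 and E2F8. Where a call was refitted without either sow and changed, the result without it is given. In the supplement's read quality, RES sows 3 and 5 lay far below all others and were counted in a lower group. Above them the widest gap divided the libraries into an upper group (7 FF, 7 RES) and that lower group (6 FF, 7 RES). The supplement's row with the number of FF sow 10 has the lowest RNA integrity and the lowest share of uniquely mapped reads. The study left out an FF sow for its RNA integrity, yet the libraries keep sow 10 and lack another number. Whether that row belongs to FF sow 10 is therefore uncertain. GC markers were abundant: the summed normalized counts of the 8 GC markers with an identifier were 71149 to 121913 in FF and 76754 to 146826 in RES, none was called between diets, and FOXL2 and CYP19A1 were not analysed here.

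Feed restriction went with higher transcript levels of E2F1, E2F2, E2F7 and E2F8, each about doubled, and with a lower level of E2F5. E2F3, E2F4, E2F6, TFDP1 and TFDP2 did not pass the test. By edgeR's quasi-likelihood test with Benjamini-Hochberg adjustment over all 11384 genes, 5 of the 10 members were called at an adjusted p under 0.05, against 14.1% of all genes. In the upward direction 4 of 10 were called against 8.29% of all genes, and in the downward direction 1 of 10 against 5.85%. With DESeq2 size factors in place of TMM, 1197 of 1719 calls were upward, against 944 of 1610 here, and the members called were the same 5. The median log2 fold change was 0.25 over the 10 members and -0.02 over all genes tested. In bulk RNA of captured cells, more cells in cycle and more RNA per cell cannot be told apart.

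**Figure D1:**
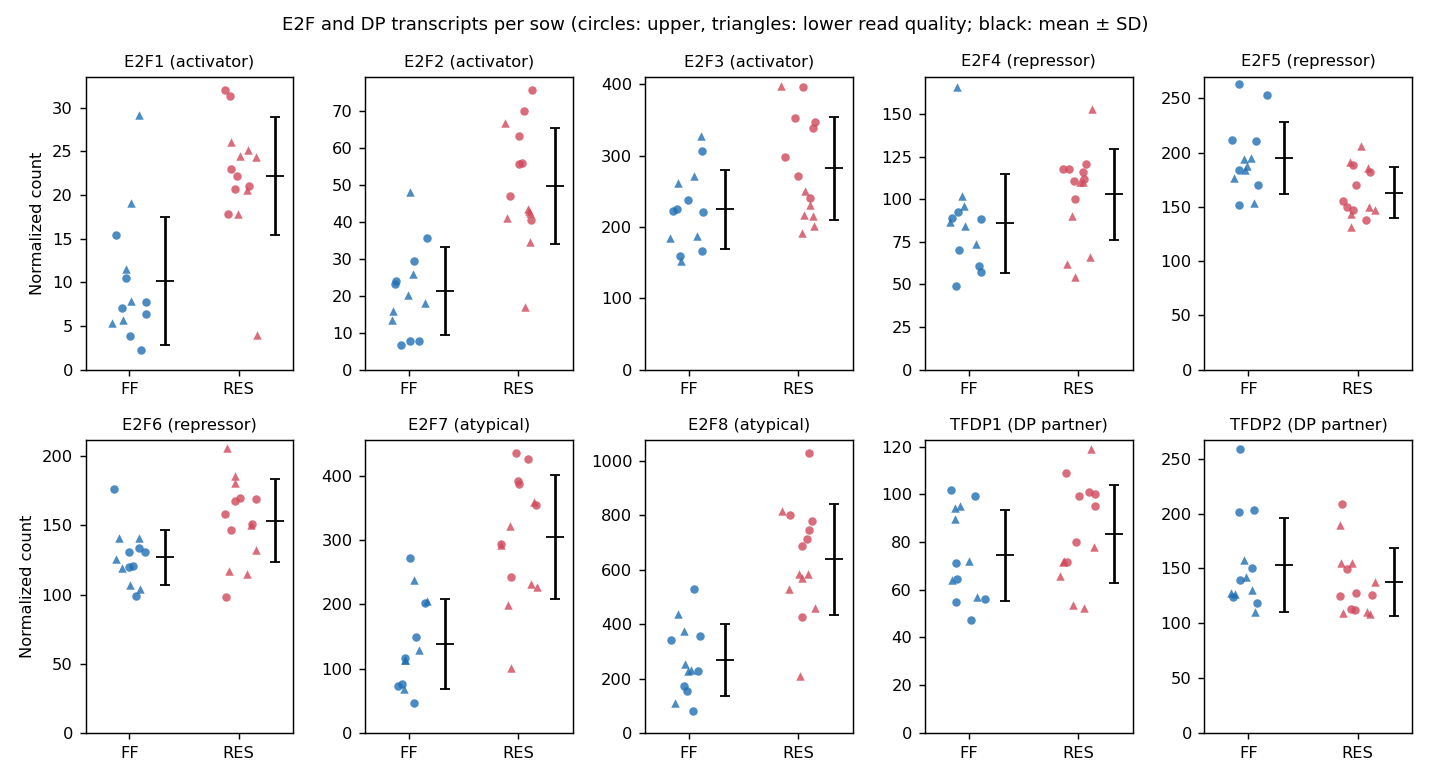
Normalized counts of the 10 members in each sow (y axis, from 0), for FF (blue, n = 13) and RES (red, n = 14); circles are libraries of the upper and triangles of the lower read quality group, and the black bar is the mean ± SD. E2F1, E2F2, E2F7 and E2F8 are higher in RES in all but 1 sow when set against the FF median, while E2F3, E2F4, E2F6, TFDP1 and TFDP2 overlap broadly.

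Among the activators, E2F1 (17:37178587-37190118, minus strand, 9 merged exons), which drives S phase entry, was a rare transcript. It had 2 to 23 raw counts in FF and 4 to 32 in RES libraries. In normalized counts the FF sows ranged from 2.24 to 29.1 (median 7.71) and the RES sows from 3.99 to 32 (median 22.6). In all, 13 of 14 RES sows lay above the FF median, the exception being RES sow 7. The groups overlapped, with 11 of 13 FF sows at or above the lowest RES sow, and FF sows 5 and 10 reached into the range of the other RES sows. The mean ± SD was 10.1 ± 7.36 over the 13 FF sows and 22.2 ± 6.73 over the 14 RES sows, and the log2 fold change was 1.08 (SE 0.28, edgeR adjusted p = 0.0111). The call held in each of the 27 fits that left out 1 library (adjusted p 0.0016 to 0.023).

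E2F2 (6:81377922-81398862, minus strand, 7 merged exons) is another activator of S phase genes. FF sows ranged from 6.73 to 48.1 normalized counts (median 20.2) and RES sows from 17 to 75.8 (median 45.3). The groups overlapped, but 6 RES sows lay above every FF sow and 5 FF sows below every RES sow. The log2 fold change was 1.19 (SE 0.24, edgeR adjusted p = 0.00256), or 2.28-fold, from a mean ± SD of 21.2 ± 11.9 (n = 13) to 49.8 ± 15.8 (n = 14).

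E2F3 (7:15793519-15870213, plus strand, 8 merged exons), the activator with the most counts, lay between 153 and 327 normalized counts in FF sows (median 222) and between 191 and 398 in RES sows (median 261). The groups overlapped over most of their range, although 5 RES sows exceeded every FF sow. Its log2 fold change of 0.28 (SE 0.13, 95% interval 0.02 to 0.53) did not pass edgeR's test over all genes (adjusted p = 0.146). It did pass with limma's voom and sample quality weights (adjusted p = 0.035).

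Of the repressor group, E2F5 was called lower in RES, and E2F4 and E2F6 did not pass the test. E2F4 (6:27834356-27841419, plus strand, 10 merged exons), which with the pocket proteins RBL1 and RBL2 silences targets in resting cells, lay between 49.2 and 166 normalized counts in FF sows (median 86.5) and between 54.5 and 153 in RES sows (median 111). The highest FF value was that of FF sow 10. The log2 fold change was 0.21 (SE 0.16, 95% interval -0.09 to 0.52, edgeR adjusted p = 0.376).

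E2F5 (4:51478399-51512617, minus strand, 8 merged exons), also a partner of RBL2, was the only member called lower in RES. FF sows ranged from 152 to 263 normalized counts (median 188) and RES sows from 131 to 206 (median 153). The ranges overlapped, 7 RES sows lay below every FF sow, and only 3 of 14 RES sows lay above the FF median. The log2 fold change was -0.30 (SE 0.09, edgeR adjusted p = 0.0274), or 0.81-fold. The adjusted p was 0.053 without FF sow 2 and 0.051 when all identifiers were tested. Of the merged exon bases of E2F5, 42.7% are shared with C4H8orf59 (RBIS) on the opposite strand, and the counting command names no strand option, so counts in that stretch are uncertain. RBIS, a ribosome biogenesis factor, was itself higher in RES, with means ± SD of 218 ± 50.5 normalized counts over the FF and 310 ± 77.9 over the RES sows and a log2 fold change of 0.46 (edgeR adjusted p = 0.0135). Its part in the E2F5 value was not tested.

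E2F6 (3:125248232-125271039, plus strand, 8 merged exons) represses without a pocket protein, as a part of a Polycomb complex. FF sows lay between 99.1 and 176 normalized counts (median 126) and RES sows between 97.9 and 206 (median 155), and 11 of 14 RES sows lay above the FF median. The log2 fold change of 0.23 (SE 0.09, edgeR adjusted p = 0.107) was called without FF sow 11 or without RES sow 4 (adjusted p = 0.046 at the lowest) and in no other of the 27 fits that left out 1 library.

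Over all 27 libraries, the atypical members had the most RES sows above the highest FF sow, but this order rested on FF sow 10. That sow held the highest FF level of E2F1 (29.1) and E2F2 (48.1). The next highest FF levels, 19.1 for E2F1 and 35.6 for E2F2, lay below the RES medians of 22.6 and 45.3. E2F8 (2:40178182-40194932, plus strand, 14 merged exons) was found at 80.7 to 530 normalized counts in FF sows (median 233) and at 208 to 1028 in RES sows (median 636). In all, 10 of 14 RES sows lay above the highest FF sow, and 13 lay above the FF median. The mean ± SD rose from 269 ± 132 (n = 13) to 638 ± 203 (n = 14), and the log2 fold change was 1.19 (SE 0.23, edgeR adjusted p = 0.00194). Leaving out any 1 library kept the log2 fold change between 1.11 and 1.31.

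E2F7 (5:104126924-104163582, plus strand, 13 merged exons), which forms dimers with E2F8 and with itself, was found at 47.1 to 272 normalized counts in FF sows (median 116) and at 101 to 436 in RES sows (median 308). Here 9 RES sows exceeded every FF sow. The means ± SD were 139 ± 70.7 (n = 13) and 305 ± 96.4 (n = 14), with a log2 fold change of 1.09 (SE 0.23, edgeR adjusted p = 0.00277).

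The DP partners, which every typical E2F needs to bind DNA, did not pass the test in either direction. TFDP1 (11:78755472-78778312, plus strand, 11 merged exons) lay between 47.4 and 102 normalized counts in FF sows (median 71.2) and between 52.3 and 119 in RES sows (median 79), with a log2 fold change of 0.12 (SE 0.14, 95% interval -0.15 to 0.39, edgeR adjusted p = 0.587). TFDP2 (13:82752446-82937790, minus strand, 17 merged exons) lay between 110 and 259 in FF sows (median 139) and between 108 and 209 in RES sows (median 127). Its log2 fold change was -0.19 (SE 0.13, 95% interval -0.45 to 0.07, edgeR adjusted p = 0.354). Both intervals end below a log2 fold change of 1, which is a doubling.

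Within the quality groups the size of these differences varied. In the upper group E2F1, E2F2, E2F7 and E2F8 were higher in RES by 1.6, 1.56, 1.40 and 1.44 on the log2 scale, and 7 of 10 members were called there, against 17.8% of all genes. E2F3 (0.51) and E2F4 (0.61) were among these. In the lower group the same 4 members had log2 fold changes of 0.59, 0.76, 0.72 and 0.91, with edgeR adjusted p of 0.211 at the lowest, and no member was called, against 0.00878% of all genes, or 1 gene in all. Without FF sow 10 these became 0.99, 1.09, 0.93 and 1.11, again with no member called, nor any other gene (0% of 11384 by edgeR, with 1325 genes at an unadjusted p under 0.05). When FF sow 10 was placed in the upper group, 3 of 10 members were called there, against 9.07% of all genes, namely E2F2, E2F7 and E2F8. The difference between the quality groups was itself tested by an interaction term and was called for no gene (0% of 11384 by edgeR, with 1398 genes at an unadjusted p under 0.05). Of the members, E2F4 had the smallest unadjusted p, 0.00884 (adjusted p = 0.296).

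**Figure D2:**
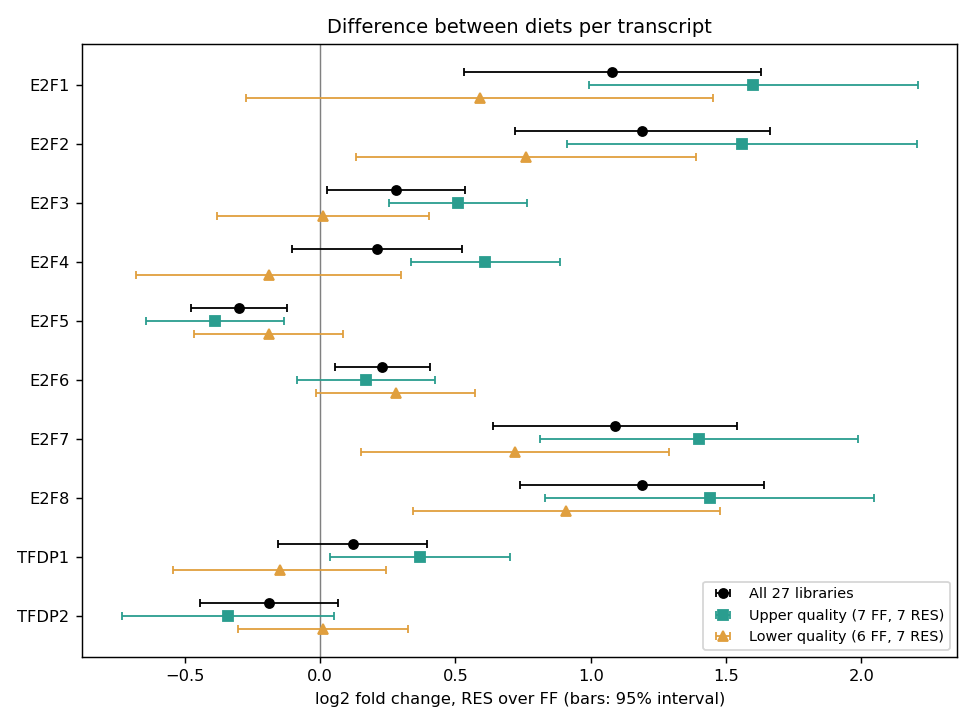
Log2 fold change of each member, RES over FF (x axis), with bars of ±1.96 SE (95% interval), for all 27 libraries (black) and within the upper (green) and lower (orange) read quality groups. E2F1, E2F2, E2F7 and E2F8 lie to the right of 0 in all 3 sets, with the larger values in the upper group, and the bars of TFDP1 and TFDP2 over all libraries span 0.

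Levels of different members can be compared only per length, here as normalized counts per 1000 bases of the merged RefSeq exons, whose ends decide part of the order. In FF GCs the order from high to low was E2F5 (109 ± 18.6, SD, n = 13), E2F8 (63.6 ± 31.3), E2F4 (41.2 ± 13.9), E2F3 (38.4 ± 9.43), E2F6 (27 ± 4.22), E2F7 (22.7 ± 11.6), TFDP2 (17.3 ± 4.86), TFDP1 (9.22 ± 2.38), E2F2 (4.66 ± 2.62) and E2F1 (3.84 ± 2.80). In this order E2F8 and E2F4, E2F4 and E2F3, E2F6 and E2F7, E2F7 and TFDP2, and E2F2 and E2F1 differed by less than the larger of their SDs. In RES GCs E2F8 (151 ± 47.9, SD, n = 14) came first and E2F5 (91.3 ± 13.2) next, and E2F8 was above E2F5 in 12 of 14 RES libraries, whereas E2F5 was above E2F8 in 11 of 13 FF libraries. E2F7 (50.0 ± 15.8), E2F4 (49.5 ± 12.8) and E2F3 (48.2 ± 12.4) lay within their spread of each other in RES. The transcripts of E2F1 and E2F2, the activators that were higher in RES, stayed the lowest of the E2F genes per length in both diets.

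Summed per length over the 8 E2F genes, the atypical members made up 25.2% of the family in the median FF library (9.86% to 43.2%) and 46.7% in the median RES library (23.7% to 51.7%). The repressor group made up 58.5% (40.0% to 74.9%) and 38.4% (32.9% to 62.0%). The share of the activators was 15.0% (12.0% to 19.0%) in FF and 15.2% (12.2% to 17.3%) in RES, mostly E2F3. E2F5, whose counts are uncertain as given above, holds the largest part of the repressor sum and weighs on all of these shares and on its own place in the order. The shares describe transcripts per length, not protein.

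PCNA (17:14137746-14142584, minus strand) lay between 496 and 2255 normalized counts in FF sows (median 1084) and between 530 and 3493 in RES sows (median 2109), and its log2 fold change was 0.90 (SE 0.22, edgeR adjusted p = 0.00736). The correlation of each member with PCNA was computed within each diet, with 100000 two-sided permutations of the libraries for every tested gene other than PCNA and Benjamini-Hochberg adjustment over all 11383 of them in a diet. In FF GCs only E2F8 was called, 1 of 10 members against 0.808% of all genes called with a positive correlation. In RES GCs E2F2, E2F3, E2F7 and E2F8 were called, 4 of 10 against 9.28%.

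Among the members, E2F8 had the highest Pearson's r with PCNA on normalized counts over all libraries of each diet, although E2F7 and E2F2 had a higher Spearman's rho, and a higher r on log2 counts, in FF. Pearson's r was 0.85 in FF (n = 13, permutation p = 0.00026, adjusted p = 0.0375) and 0.87 in RES (n = 14, permutation p = 9e-05, adjusted p = 0.00377). Spearman's rho was 0.81 in FF (permutation p = 0.00164, adjusted p = 0.108) and 0.78 in RES (permutation p = 0.00146, adjusted p = 0.0292). On log2 counts r was 0.80 in FF (permutation, adjusted p = 0.0648), so that the call in FF was lost by rho and on log2 counts, and 0.92 in RES (permutation, adjusted p = 0.00318). Without the 2 libraries farthest from the median of PCNA, r was 0.75 in FF (permutation, adjusted p = 0.33, where no gene was called) and 0.82 in RES (permutation, adjusted p = 0.0464). Without FF sow 10, r in FF was 0.89 for E2F8 (permutation, adjusted p = 0.0304), below the 0.91 of E2F2. Within the upper and lower quality groups r of E2F8 was 0.89 and 0.93 in FF, and 0.84 and 0.80 in RES.

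For E2F7, r was 0.82 in FF (permutation p = 0.00052, adjusted p = 0.0549) and 0.79 in RES (permutation p = 0.00119, adjusted p = 0.0179), and rho was 0.84 (permutation p = 0.00063) and 0.71 (permutation p = 0.00588). Within the upper and lower quality groups it was 0.87 and 0.92 in FF, and 0.81 and 0.63 in RES. Without FF sow 10, r of E2F7 in FF was 0.86 and was called (permutation, adjusted p = 0.0391). Without the 2 libraries farthest from the PCNA median, r of E2F7 was 0.68 in FF and 0.65 in RES, where its call was lost (permutation, adjusted p = 0.201), as it was with rho (adjusted p = 0.0596).

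For E2F2, r was 0.72 in FF (permutation p = 0.00592, adjusted p = 0.155) and 0.73 in RES (permutation p = 0.0035, adjusted p = 0.0349), and rho was 0.82 (permutation p = 0.00088) and 0.77 (permutation p = 0.00207). FF sow 10 decided the FF value, since r without it was 0.91 (permutation, adjusted p = 0.0142). Without the 2 farthest libraries r of E2F2 was 0.66 in FF and 0.63 in RES, where its call was lost (permutation, adjusted p = 0.224). Within the upper and lower quality groups it was 0.92 and 0.68 in FF, but 0.36 and 0.86 in RES.

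For E2F3, r was 0.60 in FF (permutation p = 0.0294, adjusted p = 0.314) and 0.74 in RES (permutation p = 0.00314, adjusted p = 0.0329), with rho of 0.52 (permutation p = 0.069) and 0.61 (permutation p = 0.0227, adjusted p = 0.123). Without the 2 farthest libraries r was 0.33 in FF and 0.69 in RES (permutation, adjusted p = 0.152), so the RES call of E2F3 was lost in both. Within the upper and lower quality groups r of E2F3 was 0.90 and 0.35 in FF, and 0.89 and 0.46 in RES.

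E2F1 was not called in either diet, with r = 0.41 in FF (permutation p = 0.162, adjusted p = 0.586) and 0.53 in RES (permutation p = 0.0469, adjusted p = 0.168), with rho of 0.55 (permutation p = 0.0528) and 0.39 (permutation p = 0.17). In RES its r rested on sow 7 and was 0.18 without it, and without the 2 farthest libraries it was 0.27 in FF and 0.26 in RES. On log2 counts r of E2F1 was 0.61 in FF and 0.77 in RES. Within the upper and lower quality groups it was 0.79 and 0.61 in FF, but 0.01 and 0.81 in RES. The remaining members had r of 0.37 and 0.48 (E2F4), -0.38 and -0.27 (E2F5), 0.21 and 0.36 (E2F6), 0.42 and 0.55 (TFDP1), and -0.41 and 0.02 (TFDP2) in FF and RES, none of them called. Without RES sow 7, the adjusted p in RES was 0.207 for E2F2, 0.0965 for E2F3 and 0.123 for E2F7, and E2F8 alone was called (permutation, r = 0.80, adjusted p = 0.03).

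**Figure D3:**
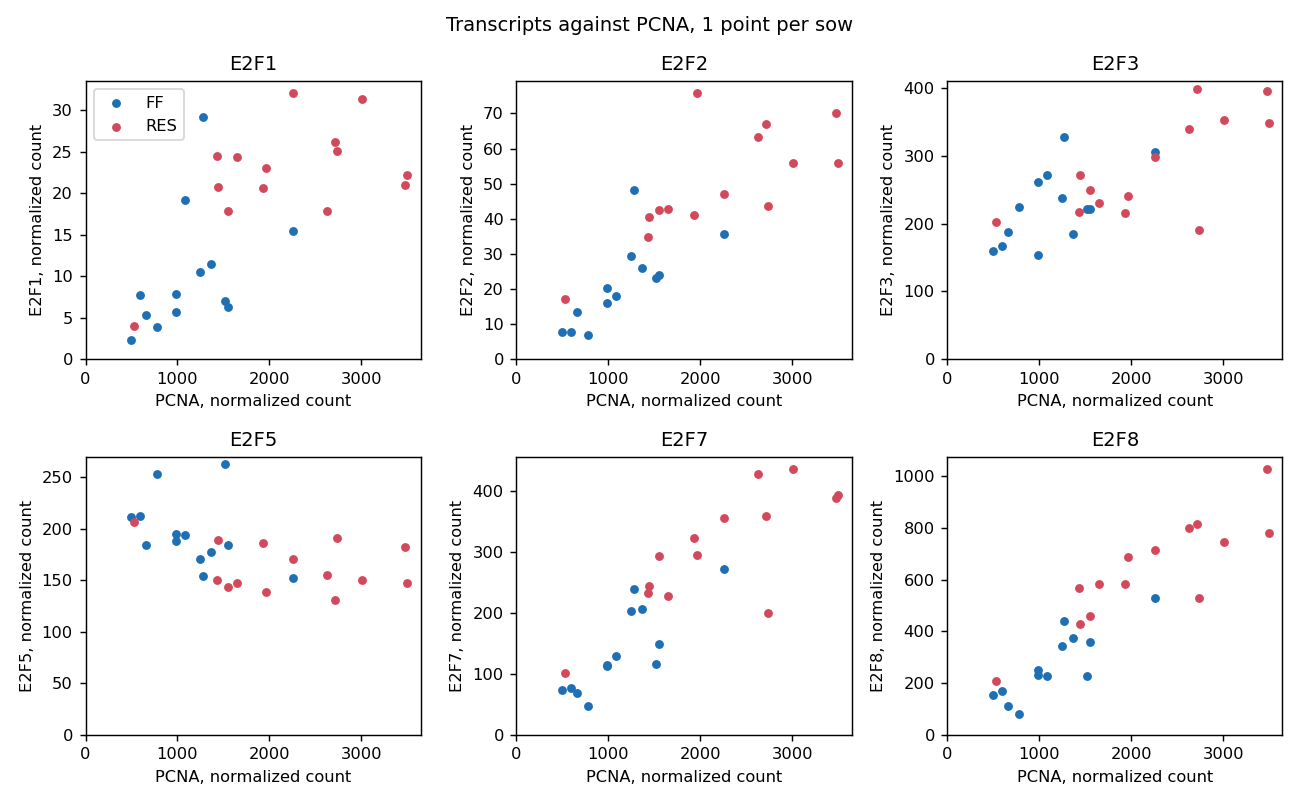
Normalized counts of 6 members (y axis) against PCNA (x axis), 1 point per sow, FF in blue (n = 13) and RES in red (n = 14). E2F8 and E2F7 climb with PCNA in both diets, E2F1 lies higher in RES than in FF with little slope among most RES sows, and E2F5 does not climb.

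The slope of each member on log2 PCNA, in log2 units per doubling of PCNA, was fitted for all genes with edgeR. In FF, E2F2 (1.14, SE 0.23, adjusted p = 0.00273), E2F7 (1.01, SE 0.17, adjusted p = 0.000837) and E2F8 (0.97, SE 0.16, adjusted p = 0.000704) were called, 3 of 10 members against 3.03% of all genes with a positive call. The same 3 were called in RES, with slopes of 0.60 (SE 0.18, adjusted p = 0.0214), 0.64 (SE 0.15, adjusted p = 0.00539) and 0.69 (SE 0.15, adjusted p = 0.0025), against 7.34%. The slopes within each diet were not refitted without FF sow 10 or without RES sow 7, which had the lowest PCNA in RES (530). The slopes were smaller in RES by 0.54 (E2F2), 0.37 (E2F7) and 0.28 (E2F8), but the difference between diets was not called for any member (edgeR adjusted p of 0.975 or more, against 0.00879% of all genes, or 1 gene). The intervals of the difference were -1.09 to 0.01 for E2F2, -0.82 to 0.08 for E2F7 and -0.69 to 0.13 for E2F8.

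With log2 PCNA as a covariate, the difference between diets shrank to 0.45 (SE 0.31) for E2F1, 0.49 (SE 0.21) for E2F2, 0.40 (SE 0.17) for E2F7 and 0.49 (SE 0.16) for E2F8. No member was called at equal PCNA, nor was any other gene (0% of 11383 by edgeR, with 709 genes at an unadjusted p under 0.05 and 4 genes called by voom with sample quality weights, none of them a member). E2F2, E2F7 and E2F8 had unadjusted p of 0.0264, 0.027 and 0.00561 in this fit (edgeR adjusted p = 0.764, 0.764 and 0.563), and their intervals were 0.08 to 0.90, 0.07 to 0.73 and 0.18 to 0.80. E2F5 was at -0.16 (SE 0.11), and E2F3, E2F4, TFDP1 and TFDP2 lay between -0.09 and -0.03, while E2F6 was at 0.13 (SE 0.12). PCNA itself differed between diets, so this covariate takes up part of any difference that goes with diet.

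**Figure D4:**
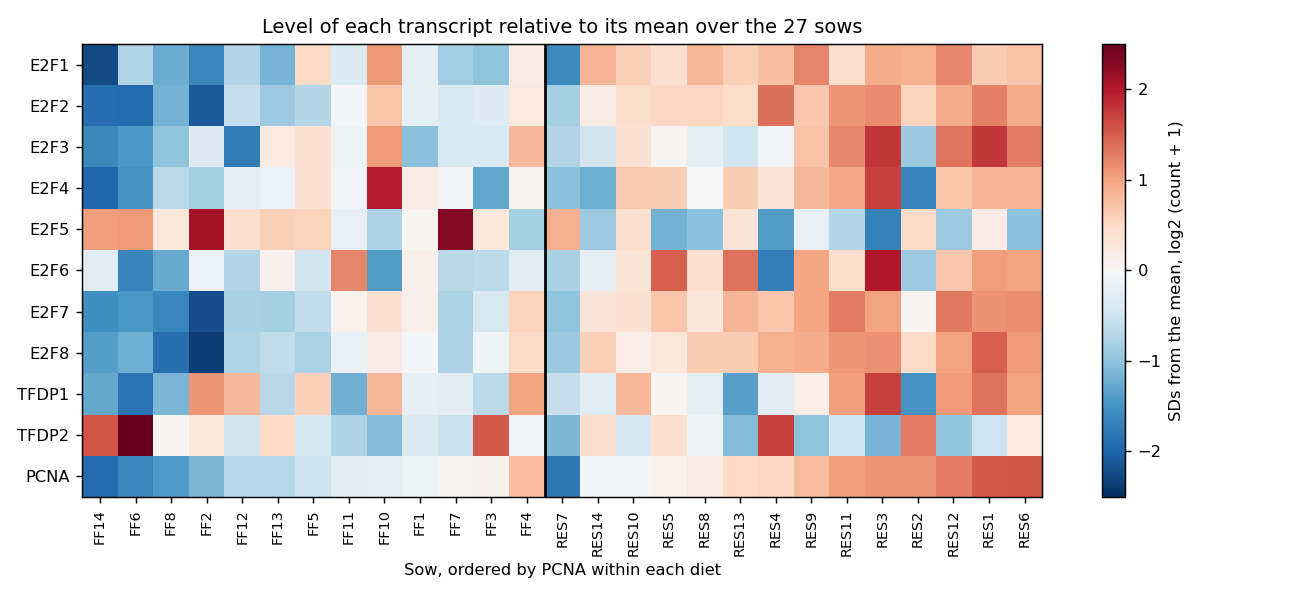
Level of the 10 members and PCNA in each sow (columns, ordered by PCNA within FF, left, and RES, right), as SDs from the gene's mean over the 27 sows on the log2 (normalized count + 1) scale. The rows of E2F2, E2F7 and E2F8 shade with PCNA in both diets, RES sow 7 looks like the FF sows with low PCNA, and E2F5 and TFDP2 shade differently from the others.

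The members also varied together, which is given as a description over 13 FF and 14 RES libraries that share depth and size factors. On the log2 scale E2F7 and E2F8 had r of 0.97 in FF and 0.90 in RES, E2F7 and E2F2 had r of 0.93 in FF and 0.85 in RES, and E2F8 and E2F2 0.88 and 0.92. E2F8 was the 7th and E2F7 the 11th most alike of 11383 genes to E2F2. By the mean of the 2 diets TFDP1 was most alike to E2F3 among the members, with r of 0.48 in FF and 0.94 in RES, though in FF alone it was closer to E2F4 (0.58). E2F5 ran opposite to E2F1, E2F2, E2F7 and E2F8, with mean r of -0.56, -0.63, -0.64 and -0.61. TFDP2 ran opposite to E2F4 (r of -0.82 in FF and -0.43 in RES).

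The tested genes whose pattern was most like that of a member, by the mean of the r within FF and within RES on the log2 scale, were found for each member. For E2F8 they were ATAD5 (0.97), which unloads PCNA from DNA, KNTC1 (0.96), a kinetochore protein, and BLM (0.96), a DNA helicase. For E2F7 they were CHAF1A (0.95), which places histones on new DNA, the polymerase POLE (0.94) and ORC1 (0.93), a part of the origin recognition complex. For E2F2 they were CHAF1A (0.93), KIF24 (0.92) and DTL (0.91), which marks CDT1 for degradation. E2F1 was most like DBF4B (0.87), MYBL2 (0.83) and BRI3BP (0.81). For E2F3 they were NSUN2 (0.89), CLMP (0.87) and M6PR (0.87), and for E2F4 SLC29A1 (0.91), RCC2 (0.91) and SEMA7A (0.90). E2F5 had the loosest companions, MFSD8 (0.75), TLK1 (0.75) and QKI (0.75). The genes alike E2F6 included MSRB1 (0.79) and CDR2 (0.79), TFDP1 was most like PPM1G (0.78), ALDOA (0.77) and LPCAT3 (0.77), and TFDP2 like RMND1 (0.87), MED17 (0.86) and ARID5B (0.85).

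Most of the E2F target genes of the G1/S transition were higher in RES. Of a list of 50, 48 were tested, 41 were called higher in RES, against 8.29% of all genes, and none lower, and all 48 had a positive log2 fold change with a median of 0.85. The list holds PCNA, so it is not separate from the values above. The called genes with the largest values were ORC1 (1.23, SE 0.26, edgeR adjusted p = 0.00277), FBXO5 (1.19, SE 0.21, adjusted p = 0.00183), which restrains the anaphase-promoting complex, ASF1B (1.11, SE 0.23, adjusted p = 0.00256), a histone chaperone, and MYBL2 (1.06, SE 0.36, adjusted p = 0.0448). The 7 that did not pass were CCNE2, CDT1, MCM2, MCM5, GINS2, CHAF1B and UHRF1, with log2 fold changes of 0.56 to 0.85.

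The pocket proteins RBL1 or RBL2 and the MuvB core, with E2F4 or E2F5 and a DP protein, form the repressive DREAM complex. A list of the pocket protein genes, RB1 included, the MuvB genes, MYBL2 and FOXM1, the last 2 of which join MuvB when it activates mitotic genes, held 10 genes, of which 9 were tested and 5 were called higher, against 8.29% of all genes, and none lower, with a median of 0.40. Of the 7 pocket protein and MuvB core genes tested, 3 were called. The pocket proteins differed among themselves. RBL1, itself an E2F target, rose from a mean ± SD of 1872 ± 521 (n = 13) to 2788 ± 800 (n = 14) normalized counts (log2 fold change 0.52, edgeR adjusted p = 0.0179), while RB1 (-0.06, adjusted p = 0.64) and RBL2 (-0.20, adjusted p = 0.185) did not pass the test. Of the MuvB genes, LIN9 (0.76, adjusted p = 0.00296) and LIN54 (0.40, adjusted p = 0.00194) rose, and LIN37 (0.15) and LIN52 (0.20) did not pass. MYBL2 and FOXM1 (1.02, adjusted p = 0.00452) also rose.

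**Figure D5:**
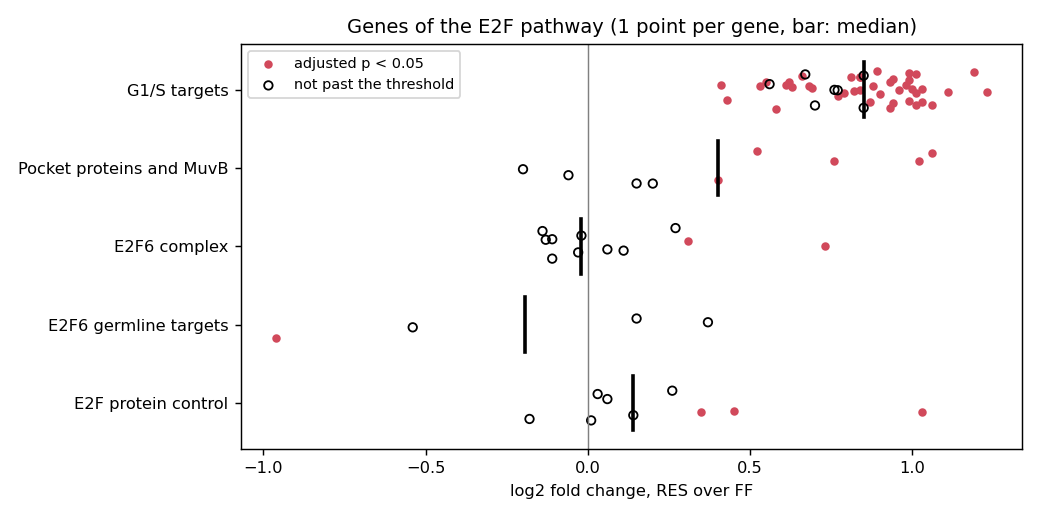
Log2 fold change, RES over FF (x axis), of each tested gene of 5 lists, with red points for genes called by edgeR and open points for the others, and a bar at the list's median. The G1/S targets lie to the right of 0 with a median of 0.85, and the E2F6 complex centres on -0.02.

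Markers of other cell types mostly had negative log2 fold changes. Those that were called were all lower in RES, where 5.85% of all genes were called lower. Of the 5 endothelial markers tested, CDH5 (-0.56, edgeR adjusted p = 0.0113) and EMCN (-0.78, adjusted p = 0.00283) were lower in RES, and their summed normalized counts were 1077 to 2301 in FF and 747 to 2279 in RES. Of 8 theca markers CYP11A1 (-1.28, adjusted p = 0.0092) was lower, with sums of 2683 to 13809 and 1456 to 12934. PDGFRB of 6 stroma and smooth muscle markers (-0.62, adjusted p = 0.0402) was lower too, with sums of 2356 to 11633 and 2288 to 11095. HBB of the 2 erythroid markers tested (-1.89, adjusted p = 0.0171) was lower, with sums over 3 genes of 35.5 to 1069 in FF and 9.63 to 147 in RES. No marker of the 3 immune genes tested (sums of the 6 genes 69.6 to 386 and 41.1 to 304) and not GDF9, the oocyte gene tested, was called. No marker with an identifier was at 0 in every library. Their part in the members' differences was not tested.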

How the data were processed

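The data are 27 UMI RNA-seq libraries, 1 per sow. The authors cleaned reads with SOAPnuke, aligned them with HISAT2 2.2.1 to Sscrofa11.1, kept unique reads with SAMtools 1.16.1, removed PCR copies with UMI-tools 1.1.4 and counted read pairs on Ensembl exons with featureCounts 1.6.2 without a strand option. The deposited values are whole-number counts, not normalized.

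Symbols were paired with identifiers through a table (15623 of 35670 matched), and positions came from RefSeq by symbol. Named genes with a mean count of at least 5, without 38 small RNAs, were tested (11384) with edgeR 4.0.16 (TMM, quasi-likelihood, ~ diet, R 4.3.3), Benjamini-Hochberg adjusted over all genes. The SE is the log2 fold change over the square root of F, and 95% intervals are ±1.96 SE. Size factors were those of DESeq2 1.42.0 over 17467 identifiers. The smallest permutation p is 1e-05. DESeq2, limma 3.58.1, Python 3.11.15, pandas 2.3.3 and numpy 2.4.6 served for alternatives and correlations, and the tests were tested on simulated data. No 2 libraries of a diet were alike within sampling noise.

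Named were the members, PCNA, the 3 genes most alike each member, the 4 largest called changes of each list, and any gene of a list of up to 12. RBIS was chosen after its values were seen, and 1 gene alike a member is not reported here. The members and lists were chosen with earlier results of these data known.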

Additional observations from a re-analysis of the deposited data

How the results depend on the processing

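Over the 9 alternatives in tool, filter, normalization, covariate and weights that kept all 27 libraries, E2F1, E2F2, E2F7 and E2F8 were called each time, with log2 fold changes of 1.07 to 1.43, and also in each of the 27 fits that left out 1 library. E2F5 was called in 8 of the 9 and in 26 of the 27. Leaving out 1 library gave 4 to 6 members, 36 to 48 G1/S target genes and 4 to 5 pocket protein and MuvB genes called, beside 1182 to 2350 of all 11384 genes. Within the lower quality group, with or without FF sow 10, 0 members, 0 G1/S target genes and 0 pocket protein and MuvB genes were called by edgeR, beside 1 of all 11384 genes with it and 0 without it (1385 and 1325 at an unadjusted p under 0.05). There E2F4 was at -0.19, TFDP1 at -0.15 and TFDP2 at 0.01, against the opposite sign over all libraries, and without FF sow 10 TFDP1 was at -0.08. The cause was not tested, and the upper quality group, with 14 sows against 13, had 7 members and 2023 genes called. With FF sow 10 added to it, 3 members and 1033 genes were called. With voom and sample quality weights 3193 genes were called over all libraries, against 1610.

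Of the members, 1 was called for its correlation with PCNA in FF and 4 in RES. In FF this became 0 with Spearman's rho, 0 on log2 counts, 0 without the 2 libraries farthest from the PCNA median, 0 with CDK1 in place of PCNA, 2 with residuals within quality groups and 3 without FF sow 10. In RES it became 2 with Spearman's rho, 2 with TMM-scaled counts, 2 with residuals within quality groups, 3 with CDK1 in place of PCNA, 1 without the 2 farthest libraries and 1 without RES sow 7, the last chosen after seeing the data, as were the fits that moved FF sow 10. The cause was not tested. Positive calls over all genes ranged from 0 to 197 in FF and from 242 to 1175 in RES. The slope difference and the comparison at equal PCNA called 0 members in each alternative run.

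With the sow number as a replicate block, the log2 fold change of E2F8 was 1.27 and that of E2F1 1.13, and the same 5 members were called. Sows with the same number did not deviate together (r -0.242 to 0.31 over 13 pairs, median 0.01, with 1 pair above 0.1), so they share only a number. Low counts limit E2F1 most, with 2 to 32 counts per library.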

Other observations

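Genes that work with E2F6 or that it is known to silence in somatic cells were measured beside it. Of 12 genes of the E2F6 complex, 11 were tested and 2 were called higher in RES, against 8.29% of all genes and 14.1% called in either direction. These were WDR5 (log2 fold change 0.73, edgeR adjusted p = 0.0158), an adaptor shared by several chromatin complexes, and PCGF6 (0.31, adjusted p = 0.0494), the Polycomb subunit that gives this complex its identity. The median over the list was -0.02, the same as over all genes tested. MGA (-0.13), MAX (0.06) and L3MBTL2 (0.27), which also mark this complex, did not pass the test. Of 8 germline genes kept silent by E2F6, 4 reached the count limit. TEX11, a meiosis gene, was lower in RES, with a mean ± SD of 25.3 ± 9.06 normalized counts over the 13 FF sows, 13.3 ± 6.59 over the 14 RES sows and a log2 fold change of -0.96 (edgeR adjusted p = 0.0162), 1 of 4 against 5.85% of all genes called lower. SMC1B (0.15), SLC25A31 (0.37) and DDX4 (-0.54) did not pass.

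A list drawn up for genes that act on E2F proteins held 10 symbols. CDH1, the symbol of E-cadherin, does not belong in it and was not tested. Of the other 9, all tested, 3 were called higher in RES, against 8.29% of all genes. These were CCNF (1.03, edgeR adjusted p = 0.00677), the ligase subunit that marks activator and atypical E2F proteins for degradation, SKP2 (0.45, adjusted p = 0.00832), a ligase subunit of the G1/S transition, and CDC27 (0.35, adjusted p = 0.00294), a subunit of the anaphase-promoting complex. FZR1 (0.26), BTRC (-0.18) and MDM2 (0.03) did not pass. The median over the list was 0.14.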
